A study of Mus musculus with 35 samples.

Results

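Mitochondrial fission and fusion genes were examined in bone marrow-derived macrophages (BMDMs), the cells that grow out of mouse bone marrow in medium conditioned by L929 cells. The group holds 10 genes of 47069 gene identifiers in each library, and was chosen by name: Dnm1l, Fis1, Mff, Mief1 and Mief2 for fission, Mfn1, Mfn2 and Opa1 for fusion, and Oma1 and Yme1l1, the proteases that cut OPA1. Each symbol matched 1 identifier, and all 10 had a mean of at least 1 FPKM (fragments scaled to gene length and library depth) over the 35 libraries, the limit for testing, which 11354 genes met. The cells came from C57BL/6 mice, wild-type or labelled AMPKα1-/- (Prkaa1, a catalytic subunit of the energy sensor AMPK), which by the study's methods were adults of both sexes. They were kept for 24 h with vehicle (DMSO), 100 nM dexamethasone (Dex, a synthetic glucocorticoid), 100 ng/ml LPS (bacterial lipopolysaccharide), LPS + Dex, 1 µg/ml DAMPs (damage-associated molecular patterns, whose composition the labels do not give) or DAMPs + Dex. Each of the 12 groups has 3 libraries, except wild-type LPS, which has replicates 2 and 3. These are bulk samples, so fewer cells of a type and less RNA per cell cannot be told apart.

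Most checks of the labels held, and that of the genotype, by the level of Prkaa1, could not decide. Prkaa1 read 15.9, 11.8 and 15.3 FPKM in wild-type vehicle and 14.8, 16.5 and 15.4 FPKM in the vehicle libraries labelled AMPKα1-/-, and the groups overlap. Over the 6 treatments its level differed by -0.04 ± 0.10 (log2, SE, adjusted p = 0.767). A value per gene cannot show the loss of a part of the gene, so the label could not be checked in this way, and these samples are called libraries labelled AMPKα1-/- throughout. Prkaa2, the other catalytic subunit, did not exceed 0.130 FPKM in any library. Tsc22d3 and Fkbp5, induced by glucocorticoids, were higher in every library with Dex than in every library of the same genotype without it at the same stimulus, and Il1b and Nos2, induced by LPS, were higher in every LPS library than in every vehicle library. Macrophage markers summed to 12632 to 39056 FPKM, with Lyz2 the most abundant (mean 24097 FPKM). Neutrophil markers summed to 0.448 to 133 FPKM with 5 of 8 under 0.1 FPKM on average, and the highest sum, in wild-type LPS replicate 2, was nearly all Camp. Endothelial markers reached 53.1 FPKM in wild-type LPS replicate 3, nearly all of it Kdr. Cdh5, Tie1 and Tek did not exceed 0.446 FPKM in any library. T cell markers reached 35 FPKM, nearly all of it Cd4, and 4 of 5 were under 0.1 FPKM on average. Fibroblast markers reached 24.7 FPKM in wild-type Dex replicate 3, B cell markers 3.19 FPKM and dendritic cell markers 1.94 FPKM. Whether cells of other types were present, or had a part in the results below, was not tested.

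Mitochondria divide when the dynamin-related GTPase DRP1, the product of Dnm1l, is recruited from the cytosol to the outer membrane, forms rings around the organelle and constricts it. FIS1, MFF, MID49 (Mief2) and MID51 (Mief1) sit in the outer membrane as its receptors or adaptors. The mitofusins MFN1 and MFN2 fuse the outer membranes of neighbouring mitochondria, and MFN2 also tethers mitochondria to the endoplasmic reticulum. OPA1 fuses the inner membranes and shapes the cristae; OMA1, which is activated by loss of membrane potential, and YME1L1 cut it from long into short forms. Macrophages stimulated with LPS are known for fragmented mitochondria, and glucocorticoids act through a receptor that binds DNA. Much of the control of this machinery is on the proteins (phosphorylation of DRP1, cleavage of OPA1), which RNA levels do not show.

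The sequences in front of 3 genes that the results turn on are given first: Mfn1 and Mfn2, related genes that moved differently with Dex, and Oma1, which rose with Mfn2. They are the 250 bases before the RefSeq start on GRCm38.p6, 5′ to 3′ on the strand of the gene, with matches to the searched motifs in capitals. RefSeq starts were found for 10 of 10 genes (15 starts), and Mfn2 has 3, of which the one farthest upstream is shown. The bases just after the start were found unbroken in a GENCODE M21 transcript of the gene for Mfn1 and for the other 2 starts of Mfn2, but not for the starts of Mfn2 and Oma1 shown.
Mfn1, chr3:32529232-32529481, plus strand: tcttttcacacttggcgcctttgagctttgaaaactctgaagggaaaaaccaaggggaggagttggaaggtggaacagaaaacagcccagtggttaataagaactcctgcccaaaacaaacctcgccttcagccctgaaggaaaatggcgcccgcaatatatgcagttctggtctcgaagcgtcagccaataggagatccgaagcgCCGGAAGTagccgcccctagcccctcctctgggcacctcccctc
Mfn2, chr4:147904910-147905159, minus strand: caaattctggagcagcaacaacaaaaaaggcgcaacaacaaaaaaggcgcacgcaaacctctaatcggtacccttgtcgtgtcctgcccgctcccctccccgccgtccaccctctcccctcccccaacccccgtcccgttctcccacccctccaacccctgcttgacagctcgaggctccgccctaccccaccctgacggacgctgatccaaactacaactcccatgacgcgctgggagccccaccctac
Oma1, chr4:103313596-103313845, plus strand: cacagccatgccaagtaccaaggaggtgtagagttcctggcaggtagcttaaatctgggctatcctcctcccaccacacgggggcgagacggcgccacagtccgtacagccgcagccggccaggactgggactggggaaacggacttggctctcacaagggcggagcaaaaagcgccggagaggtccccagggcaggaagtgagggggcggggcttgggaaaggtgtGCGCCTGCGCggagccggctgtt
The capitals in Mfn1 are CCGGAAGT, a motif of ETS factors, 44 to 37 bases before the start. Those in Oma1 match the motif of the respiratory factor NRF1 on the opposite strand, 23 to 14 bases before the start. The Mfn2 stretch holds none of the searched motifs. Both strands were searched for the glucocorticoid receptor element (AGAACA, any 3 bases and TGTTCT, found in 0.0091% of 32851 promoters of the same length), its half-site AGAACA (16.1%), the NRF1 motif (GCGCA, any base and GCGC, 3.74%), CCGGAAGT (2.88%), the NF-kB motif (GGGAC followed directly by TTTCC, 0.14%), the E-box CACGTG (6.02%) and ACGTG (the hypoxia element, 16.6%), which is also part of CACGTG. No start of the 10 genes had the full glucocorticoid element or the NF-kB motif. AGAACA was found in front of Yme1l1, CCGGAAGT also in front of Fis1 and Mief1, the NRF1 motif also in front of Opa1, CACGTG in front of Mief2, and ACGTG in front of Mief2 and of the start of Mfn2 that lies farthest downstream. A match is only a run of letters, and binding was not measured.

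Fis1 was by far the most abundant of the 10 transcripts per length, and the 2 MiD genes were the least abundant. Means over the 35 libraries were 169 FPKM for Fis1 (range 90.4 to 256), 71.1 for Yme1l1 (49.1 to 115), 43.0 for Mff (35.1 to 55.1), 31.5 for Oma1 (22.5 to 39.9), 27.4 for Mfn1 (17.4 to 43.0), 24.3 for Mfn2 (17 to 39.4), 22.4 for Opa1 (15.6 to 32.5), 17.3 for Dnm1l (9.14 to 38.3), 9.51 for Mief2 (6.76 to 13.5) and 8.48 for Mief1 (5.93 to 13.1). Ranges of neighbours in this order overlap, those of Mff, Oma1, Mfn1, Mfn2, Opa1 and Dnm1l widely. Dnm1l was the most variable across conditions: its 12 group means spanned 1.61 on the log2(FPKM + 1) scale, against 1.11 for Mfn1, 1.08 for Fis1, 0.86 for Mfn2 and 0.38 for Mief1, the least variable. Its lowest group was Dex labelled AMPKα1-/- and its highest wild-type LPS.

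**Figure D1:**
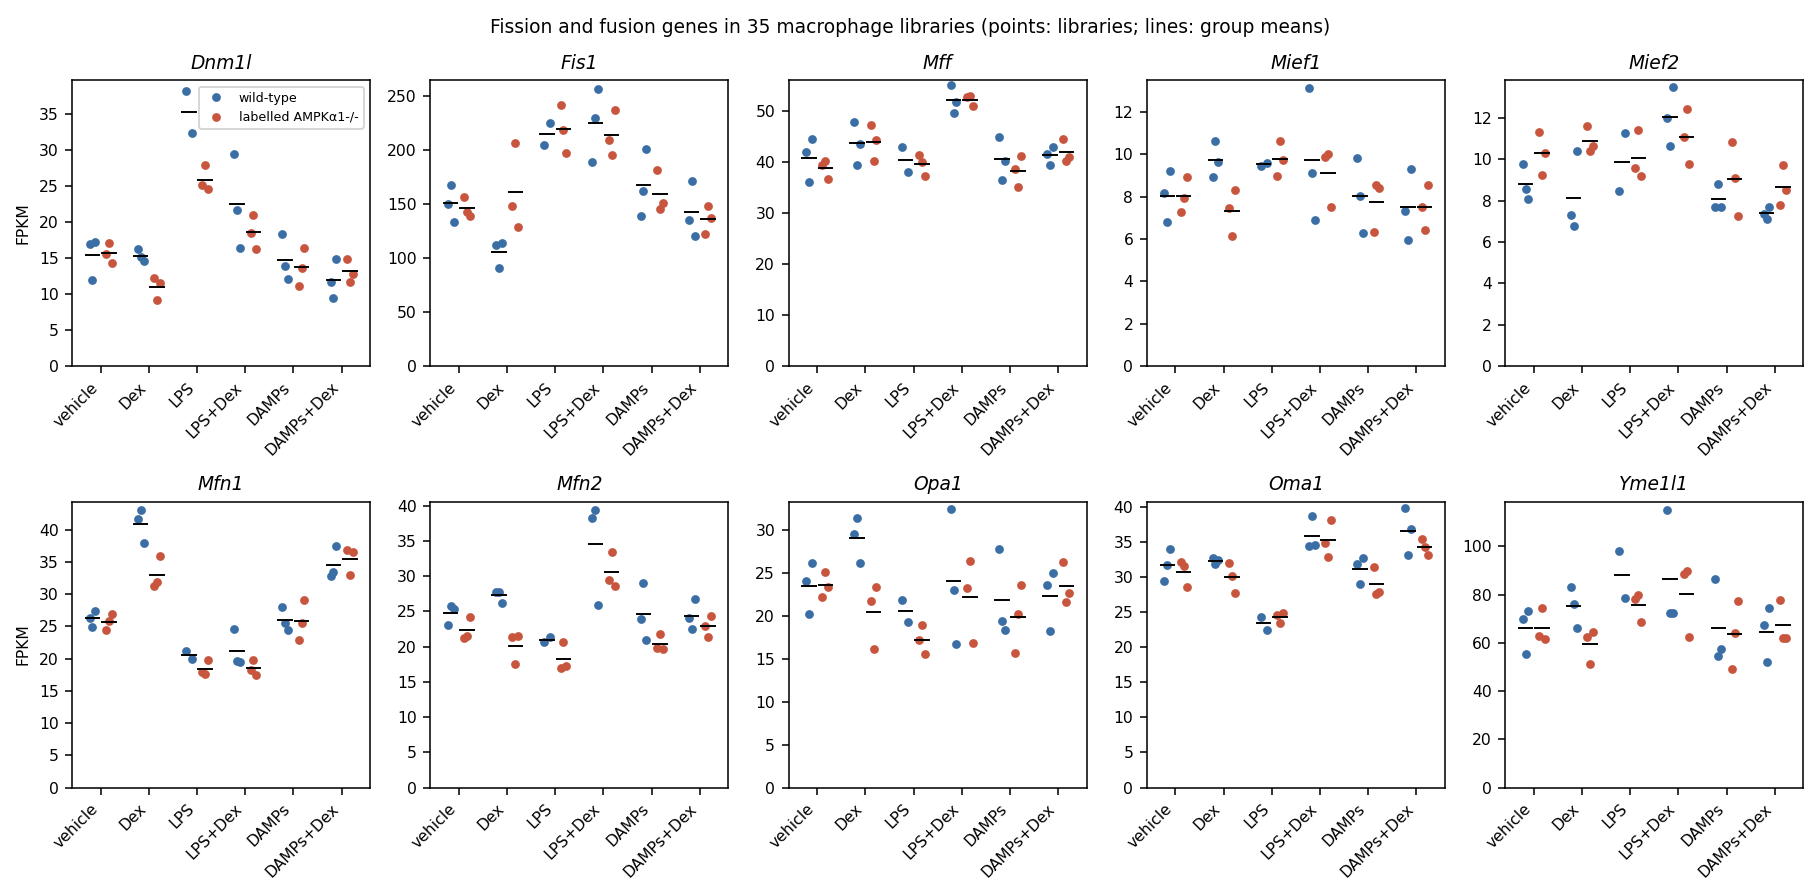
FPKM of each of the 10 genes (vertical axes, starting at 0) in 35 libraries by treatment (horizontal axes). Points are libraries, blue for wild-type and red for those labelled AMPKα1-/-, and black lines are group means; Dnm1l peaks with LPS (38.3 and 32.4 FPKM in wild-type), Mfn1 in wild-type with Dex (38.0 to 43.0 FPKM) and in libraries labelled AMPKα1-/- with DAMPs + Dex (32.9 to 36.8 FPKM), and wild-type Mfn2 with LPS + Dex (25.9 to 39.4 FPKM).

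Of 120 combinations of gene and treatment comparison (10 genes, 6 comparisons in each genotype), 32 passed the test. With LPS against vehicle 4 of the 10 genes passed in wild-type cells, 2 higher and 2 lower, where 55.7% of all genes tested passed (19.9% higher and 35.8% lower), and likewise 4 of 10 in libraries labelled AMPKα1-/- (64.3% of all genes, 20.2% higher and 44.1% lower). With LPS + Dex against LPS 4 of 10 passed in wild-type (34.1% of all genes, 16.6% higher and 17.5% lower) and 4 of 10 in libraries labelled AMPKα1-/- (37.7%, 19.3% higher and 18.4% lower), each time 3 higher and 1 lower. Dex against vehicle gave 2 of 10 in wild-type (30.9%) and 1 of 10 in libraries labelled AMPKα1-/- (27.9%). The shares lie near those of all genes, so that the number of genes that passed is no result about the group; what follows is which genes they were. DAMPs against vehicle gave 0 of 10 by limma in either genotype (2.01% and 4.13% of all genes), with 0 of 10 at an unadjusted p under 0.05 as well, and a linear model without moderation also gave 0. The all-gene counts behind these shares rest on single libraries: 228 genes in wild-type became 26 without DAMPs replicate 3, 81 without vehicle replicate 3, 114 without vehicle replicate 1 and 372 without DAMPs replicate 2, and 469 in libraries labelled AMPKα1-/- became 267 to 311 without vehicle replicate 2 or 3 or DAMPs replicate 1 or 3. With DAMPs + Dex against DAMPs 1 of 10 passed in wild-type (24.3%) and 2 of 10 in libraries labelled AMPKα1-/- (25.3%). LPS + Dex against vehicle gave 6 of 10 (54.2%) and 4 of 10 (57.4%). When only the 2 groups compared entered the fit, 1 of these 6 wild-type calls passed, that of Fis1 (adjusted p = 0.0191). Those of Dnm1l, Mff, Mief2, Mfn1 and Mfn2 did not pass in that fit, and the cause was not tested. The count in libraries labelled AMPKα1-/- was 7 with libraries centred on one median and 8 with quantile normalization.

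**Figure D2:**
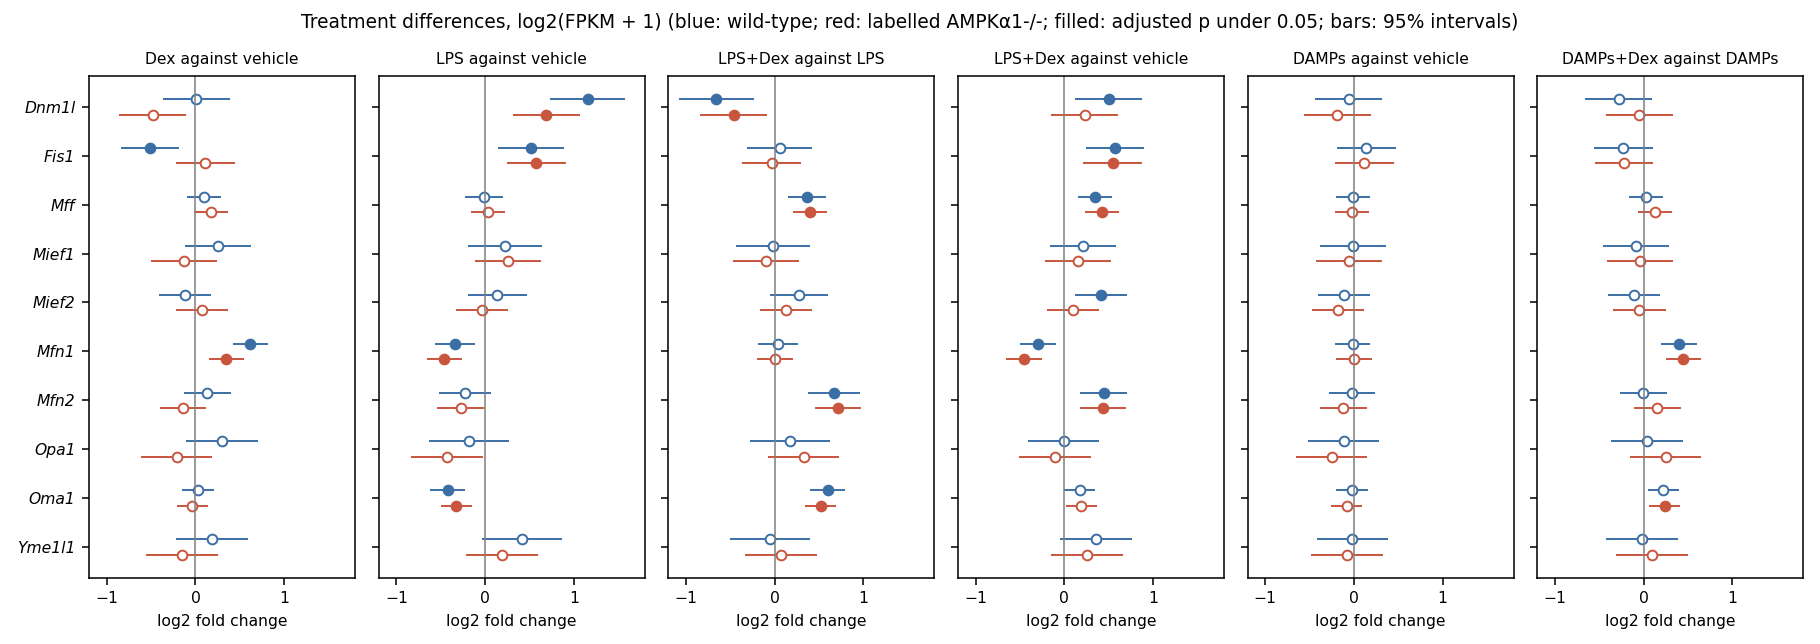
Differences in log2(FPKM + 1) of the 10 genes (rows) in 6 treatment comparisons (panels), with 95% intervals; blue is wild-type, red is labelled AMPKα1-/-, and filled circles passed an adjusted p of 0.05. Dnm1l lies at 1.16 and 0.69 with LPS and at -0.66 and -0.46 with LPS + Dex against LPS, while Opa1, Mief1 and Yme1l1 have open circles throughout.

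Dnm1l, which encodes the fission GTPase, rose with LPS and fell back with Dex. In wild-type cells it read 17, 12 and 17.3 FPKM with vehicle, 38.3 and 32.4 FPKM with LPS, and 29.5, 21.7 and 16.4 FPKM with LPS + Dex. Both LPS libraries lie above all the others, and 1 of the LPS + Dex libraries lies within the range of vehicle. The rise with LPS was 1.16 ± 0.21 (log2, SE, adjusted p = 2.42e-05), the fall with LPS + Dex against LPS was -0.66 ± 0.21 (adjusted p = 0.0138), and LPS + Dex remained above vehicle by 0.50 ± 0.18 (adjusted p = 0.0235). Leaving out LPS replicate 2 took the fall to -0.54 and leaving out LPS + Dex replicate 3 to -0.46, and neither passed. Against vehicle the value dropped to 0.34 without vehicle replicate 2 and 0.29 without LPS + Dex replicate 1, and the call was lost. Both LPS + Dex calls were also lost when only the groups compared entered the fit. In libraries labelled AMPKα1-/- Dnm1l read 15.5, 17 and 14.4 FPKM with vehicle, 25.1, 27.9 and 24.6 with LPS, and 18.5, 21.0 and 16.2 with LPS + Dex. The 3 LPS libraries stand above the other 6. The differences were 0.69 ± 0.18 (adjusted p = 0.00186) and -0.46 ± 0.18 (adjusted p = 0.0487), the second of which no longer passed without any 1 of 5 of its 6 libraries (values -0.37 to -0.50). Dex alone left Dnm1l at 16.3, 15.2 and 14.6 FPKM in wild-type. In libraries labelled AMPKα1-/- it was at 12.2, 9.14 and 11.6 FPKM, all below vehicle, a difference of -0.48 ± 0.18 with an adjusted p of 0.0501, and with the replicate number as a block of 0.0419. The difference between the genotypes in this response was -0.49 (95% interval -1.03 to 0.04, adjusted p = 0.251).

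Fis1, a receptor on the outer membrane, was higher with LPS whether or not Dex was present. Wild-type libraries read 150.0, 168 and 133 FPKM with vehicle, 205 and 225 FPKM with LPS, and 189, 229 and 256 FPKM with LPS + Dex, with no overlap between vehicle and the other groups. The rise was 0.52 ± 0.18 with LPS (adjusted p = 0.0162) and 0.57 ± 0.16 with LPS + Dex (adjusted p = 0.0038), and LPS + Dex against LPS was 0.05 ± 0.18 (adjusted p = 0.854). The LPS call was lost without vehicle replicate 3 (0.43) or LPS replicate 3 (0.45). Libraries labelled AMPKα1-/- read 157, 142 and 139 FPKM with vehicle, 242, 218 and 197 with LPS, and 209, 196 and 236 with LPS + Dex, and the differences from vehicle were 0.58 ± 0.16 (adjusted p = 0.0027) and 0.54 ± 0.16 (adjusted p = 0.00512). With Dex alone wild-type libraries fell to 112, 90.4 and 114 FPKM, all under vehicle, by 0.51 ± 0.16 (adjusted p = 0.0167), and libraries labelled AMPKα1-/- read 148, 207 and 128 FPKM, overlapping vehicle. The difference between these responses was 0.62 (95% interval 0.16 to 1.09, adjusted p = 0.194). The wild-type fall was 0.32 with the trend on transcript length removed. As fitted, it did not pass without vehicle replicate 2 (-0.43) or Dex replicate 2 (-0.41).

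Mff, for a main outer-membrane receptor of DRP1, was highest with LPS + Dex. Wild-type libraries held 42.1, 36.1 and 44.6 FPKM with vehicle, 42.9 and 38.2 with LPS, and 55.1, 49.8 and 51.9 with LPS + Dex; those labelled AMPKα1-/- held 39.6, 40.2 and 36.6, then 41.4, 40.1 and 37.3, then 52.8, 53.1 and 51.1 FPKM. All 6 LPS + Dex libraries lie above all vehicle and LPS libraries. LPS + Dex against LPS was 0.36 ± 0.10 in wild-type (adjusted p = 0.00794) and 0.39 ± 0.09 in libraries labelled AMPKα1-/- (adjusted p = 0.00119), while LPS against vehicle was -0.01 ± 0.10 and 0.03 ± 0.09. Leaving out wild-type LPS replicate 3 gave 0.28, which did not pass. Nor did the wild-type difference from LPS pass when only the groups compared entered the fit. Mief2, which encodes the adaptor MID49, passed only in wild-type LPS + Dex against vehicle: 12, 10.7 and 13.5 FPKM against 9.76, 8.54 and 8.07 FPKM, higher in 3 of 3 libraries by 0.41 ± 0.14 (adjusted p = 0.0171). It was lost without vehicle replicate 3 (0.36) or LPS + Dex replicate 3 (0.33), and in libraries labelled AMPKα1-/- the difference was 0.10 ± 0.14. Mief1, for the related adaptor MID51, passed in 0 of 12 comparisons; its differences ranged between -0.12 with Dex and 0.25 with LPS in libraries labelled AMPKα1-/-, with wide 95% intervals (-0.50 to 0.25 and -0.12 to 0.63).

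Mfn1, one of the mitofusins, rose with Dex in the absence of LPS and was lower wherever LPS was present. In wild-type it read 26.3, 24.9 and 27.4 FPKM with vehicle and 41.6, 43.0 and 38.0 FPKM with Dex, with every Dex library above every other wild-type library. The rise was 0.62 ± 0.10 (adjusted p = 1.68e-05). In libraries labelled AMPKα1-/- it went from 24.4, 25.8 and 26.9 FPKM to 31.3, 31.9 and 35.8 FPKM, 0.35 ± 0.10 (adjusted p = 0.00773), which did not pass without Dex replicate 3 (0.29). The same direction was found in the presence of DAMPs, where DAMPs + Dex read 32.9, 33.4 and 37.4 FPKM against 28.0, 25.5 and 24.4 FPKM with DAMPs in wild-type (0.40 ± 0.10, adjusted p = 0.00257), and 36.8, 32.9 and 36.5 FPKM against 22.8, 25.5 and 29.1 FPKM in libraries labelled AMPKα1-/- (0.45 ± 0.10, adjusted p = 0.000856). This wild-type call with DAMPs was lost when only the groups compared entered the fit. With LPS, Mfn1 read 21.2 and 19.9 FPKM in wild-type and 17.9, 17.7 and 19.7 FPKM in libraries labelled AMPKα1-/-, below every vehicle library, by -0.34 ± 0.11 (adjusted p = 0.00979) and -0.46 ± 0.10 (adjusted p = 0.000181), the first of which did not pass without LPS replicate 3 (-0.30). Dex on top of LPS left it at 24.6, 19.7 and 19.5 FPKM and at 18.3, 19.8 and 17.4 FPKM, differences of 0.04 ± 0.11 and 0.00338 ± 0.10 from LPS. Against vehicle, LPS + Dex was lower by -0.30 ± 0.10 (adjusted p = 0.011) and -0.45 ± 0.10 (adjusted p = 0.000242), and with libraries centred on one median these were -0.07 and -0.17 and did not pass. The wild-type value also did not pass without LPS + Dex replicate 2 (-0.25) or 3 (-0.24). In a comparison added after the data had been seen, the effect of Dex with LPS minus that without LPS was -0.58 ± 0.15 for Mfn1 in wild-type (adjusted p = 0.00304) and -0.35 ± 0.14 in libraries labelled AMPKα1-/- (adjusted p = 0.0614).

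Mfn2, the other mitofusin, had another pattern: LPS + Dex passed the test against LPS in both genotypes, and Dex alone against vehicle did not. Wild-type libraries read 23.1, 25.7 and 25.4 FPKM with vehicle, 27.8, 27.8 and 26.2 FPKM with Dex, 20.6 and 21.3 FPKM with LPS, and 38.3, 39.4 and 25.9 FPKM with LPS + Dex. All 3 Dex libraries lie above all 3 vehicle libraries, replicate 3 of LPS + Dex lies just under the Dex libraries, and the other 2 replicates are the highest of all 35 libraries. Libraries labelled AMPKα1-/- read 21.2, 21.5 and 24.2 FPKM with vehicle, 21.3, 17.6 and 21.4 with Dex, 17, 20.6 and 17.2 with LPS, and 29.5, 33.4 and 28.7 with LPS + Dex, the last above all the others of that label. LPS + Dex exceeded LPS by 0.67 ± 0.14 in wild-type (adjusted p = 0.000447) and by 0.71 ± 0.13 in libraries labelled AMPKα1-/- (adjusted p = 4.69e-05), and exceeded vehicle by 0.44 ± 0.13 in both (adjusted p = 0.00443 and 0.00461). Neither of these wild-type calls passed when only the groups compared entered the fit. Dex against vehicle was 0.14 ± 0.13 and -0.14 ± 0.13. The added comparison, the effect of Dex with LPS minus that without, was 0.54 ± 0.19 in wild-type (adjusted p = 0.0325) and 0.86 ± 0.18 in libraries labelled AMPKα1-/- (adjusted p = 0.000542); the wild-type value lost its call without any 1 of 7 of its libraries (0.43 to 0.56). In that comparison 3 of the 10 genes passed in wild-type (Mfn1, Mfn2 and Oma1; 32% of all genes) and 2 of 10 in libraries labelled AMPKα1-/- (Mfn2 and Oma1; 28.4%).

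The ratio of Mfn2 to Mfn1, 2 transcripts of the same library compared per length, does not depend on a common factor by which a library was scaled. A trend of a library along transcript length, described below, need not cancel in it. The exonic lengths are 5194 bases for Mfn2 and 6114 for Mfn1. The ratio was not rerun with such a trend removed. Its group means on the log2 scale were -0.08 ± 0.12 (SD, n = 3) with vehicle, -0.58 ± 0.05 (n = 3) with Dex, 0.03 ± 0.10 (n = 2) with LPS, 0.69 ± 0.30 (n = 3) with LPS + Dex, -0.09 ± 0.24 (n = 3) with DAMPs and -0.50 ± 0.06 (n = 3) with DAMPs + Dex in wild-type. In libraries labelled AMPKα1-/- they were -0.21 ± 0.06, -0.72 ± 0.15, -0.02 ± 0.22, 0.72 ± 0.03, -0.33 ± 0.20 and -0.63 ± 0.05 (n = 3 each). All 6 Dex libraries lie under all vehicle libraries and all 6 LPS + Dex libraries above all others, so Mfn1 was the more abundant transcript with Dex and Mfn2 with LPS + Dex. Across the treatments the ratio was lower in libraries labelled AMPKα1-/- by 0.11 (-0.20 against -0.09), with p = 0.048 in a 2-sided permutation test within treatments (100000 resamples), and p rose above 0.05 in 22 of 35 repeats that each left out 1 library. The labels do not say what a replicate number marks. If it marks a shared source, libraries of one number are not independent. Over the 6 means by genotype and number an exact permutation test gave p = 0.1, the smallest value it can give. Wild-type number 1 has no LPS library, so its mean leaves out a treatment that the other means hold.

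**Figure D3:**
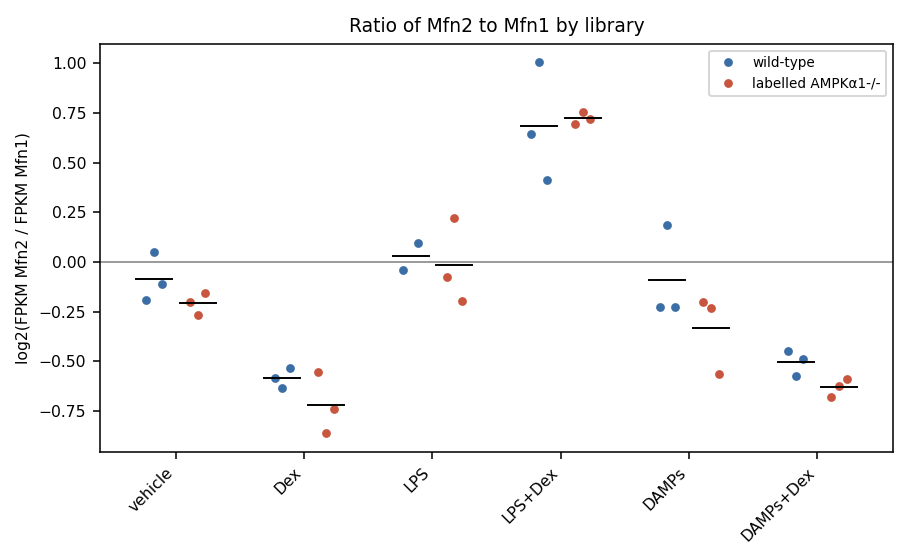
Log2 ratio of Mfn2 to Mfn1 FPKM (vertical axis) by treatment in 35 libraries; points are libraries, blue for wild-type and red for those labelled AMPKα1-/-, and black lines are group means. The ratio lies between -0.86 and -0.53 in the Dex libraries and between 0.41 and 1.00 in the LPS + Dex libraries.

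Opa1, which encodes the GTPase that fuses inner membranes, passed in 0 of 12 treatment comparisons and varied more within groups than most of the others. Its 3 wild-type LPS + Dex libraries read 32.5, 23.1 and 16.7 FPKM, nearly the whole range of the gene over the series. With LPS it read 21.8 and 19.3 FPKM against 24.1, 20.2 and 26.2 FPKM with vehicle in wild-type, which overlap. In libraries labelled AMPKα1-/- it read 17.2, 19.0 and 15.6 FPKM with LPS against 22.2, 25.1 and 23.4 FPKM with vehicle, with no overlap, a difference of -0.43 ± 0.20 and an adjusted p of 0.0561 (0.0498 with the replicate number as a block). Yme1l1, for one of the proteases that cut OPA1, also passed in 0 of 12. Its values were 69.8, 55.4 and 73.3 FPKM with vehicle and 98.0 and 78.5 FPKM with LPS in wild-type, a difference of 0.41 (95% interval -0.04 to 0.86, adjusted p = 0.116), which passed with the replicate number as a block (0.53, adjusted p = 0.0318). With the trend on transcript length removed it passed in both genotypes (adjusted p = 0.016 and 0.0442).

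Oma1, for the stress-activated protease of OPA1, fell with LPS and was higher again with LPS + Dex in both genotypes. Wild-type libraries held 29.4, 31.8 and 34.1 FPKM with vehicle, 24.4 and 22.5 with LPS, and 34.5, 38.8 and 34.6 with LPS + Dex. Libraries labelled AMPKα1-/- held 32.2, 31.5 and 28.6 FPKM, then 24.6, 23.5 and 24.8, then 34.8, 32.9 and 38.2. All 5 LPS libraries lie below the other 30 libraries of the series, and within each genotype the LPS + Dex libraries lie above vehicle, a difference that did not pass (0.17 ± 0.09 and 0.19 ± 0.09, adjusted p = 0.0875 and 0.0559). LPS against vehicle was -0.42 ± 0.10 (adjusted p = 0.000439) and -0.33 ± 0.09 (adjusted p = 0.00162), and LPS + Dex against LPS was 0.60 ± 0.10 (adjusted p = 1.25e-05) and 0.52 ± 0.09 (adjusted p = 1.58e-05). The falls with LPS were smaller and did not pass in either genotype with libraries centred on one median. Dex alone gave 0.03 ± 0.09 and -0.04 ± 0.09, and the added comparison of Dex with and without LPS was 0.57 ± 0.13 (adjusted p = 0.00121) and 0.56 ± 0.12 (adjusted p = 0.000783). With the trend on transcript length removed, the wild-type value was 0.36 and did not pass (adjusted p = 0.0713). With DAMPs, Dex raised Oma1 from 31.5, 27.6 and 27.9 FPKM to 35.4, 34.3 and 33.2 FPKM in libraries labelled AMPKα1-/- (0.24 ± 0.09, adjusted p = 0.0411, lost without any 1 of 5 of the 6 libraries, 0.20 to 0.26), and the wild-type difference was 0.22 ± 0.09 (adjusted p = 0.0603).

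The scale of the LPS comparisons has a limit. Saa3, an acute-phase transcript, took 16% to 24.0% of the summed FPKM of the LPS + Dex libraries, 3.74% to 7.58% of the LPS libraries, 0.903% to 2.63% of the DAMPs + Dex libraries, and at most 0.224% with vehicle, Dex or DAMPs, and the median difference of all genes was -0.19 with LPS and -0.23 with LPS + Dex against vehicle in wild-type, and -0.30 and -0.28 in libraries labelled AMPKα1-/-. Relative to these medians Dnm1l rose with LPS by 1.34 and 0.99, Fis1 by 0.70 and 0.88, while Mfn1 stood at -0.15 and -0.16 and Oma1 at -0.24 and -0.03. With libraries centred on one median, the falls with LPS did not pass for Oma1 in either genotype (-0.27 and -0.05) nor for Mfn1 in wild-type (-0.19). LPS + Dex against LPS had medians of -0.03 and 0.01, and its 8 calls passed with centring. When only the groups compared entered the fit, Oma1 alone of the 4 wild-type calls in LPS + Dex against LPS passed.

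A second difference between libraries ran along transcript length. An index was taken from the deviation of each gene from its mean over the 35 libraries in log2(FPKM + 1). It is the median deviation of genes under 2000 exonic bases minus that of genes over 6000. The index ranged from -0.64 in wild-type Dex replicate 2 to 0.49 in wild-type LPS + Dex replicate 3. Deviations from the group means over the 35 libraries followed it with r = -0.95 for Opa1, -0.92 for Dnm1l, 0.92 for Fis1 (the gene with the shortest transcripts of the 10, 1714 exonic bases), -0.91 for Mief1, -0.87 for Yme1l1, -0.82 for Mfn1, -0.59 for Mfn2, -0.42 for Mff, 0.31 for Mief2 and 0.13 for Oma1. These are descriptions over libraries that share groups. The index moved with Dex in opposite directions in the genotypes, by -0.38 in wild-type and 0.25 in libraries labelled AMPKα1-/-. Its part in the Dex results was not tested beyond a refit without the trend on length. With the trend on length removed from each library, an alternative added after the data had been seen, Fis1 fell by 0.32 ± 0.09 with Dex in wild-type (adjusted p = 0.0106). With it removed, 37 of 38 calls passed. The one lost was Oma1 in the added wild-type comparison (0.36, adjusted p = 0.0713), and among 10 gained were Yme1l1 with LPS (0.46 and 0.33, adjusted p = 0.016 and 0.0442).

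**Figure D4:**
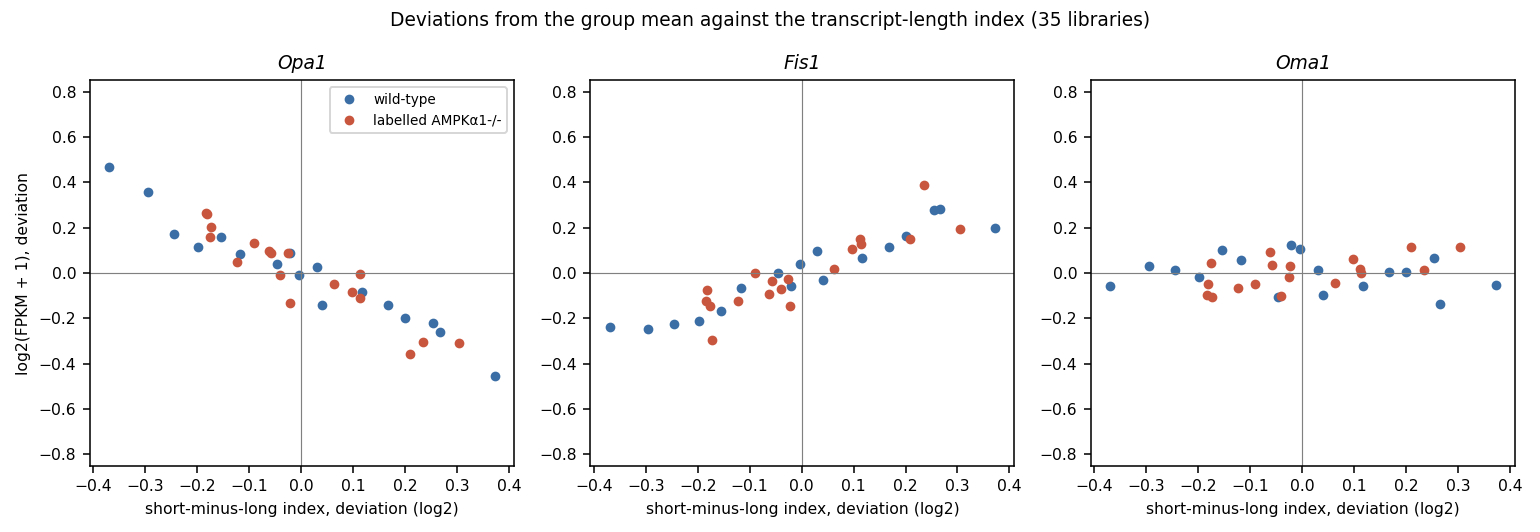
Deviation of each library from its group mean in log2(FPKM + 1) (vertical axes) against its deviation in the length index (horizontal axes, log2) for Opa1, Fis1 and Oma1; points are 35 libraries, blue for wild-type and red for those labelled AMPKα1-/-. Opa1 falls (r = -0.95) and Fis1 rises (r = 0.92) along the index, and Oma1 does neither (r = 0.13).

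Between the genotypes, Mfn2 passed the test over the treatments. With vehicle 0 of 10 passed by limma (0.432% of all genes), with 0 at an unadjusted p under 0.05 and 0 by the linear model without moderation. Averaged over the 6 treatments Mfn2 was lower in libraries labelled AMPKα1-/- (22.4 against 26.1 FPKM), by 0.21 ± 0.05 (adjusted p = 0.00631), and 1 of 10 passed where 21.4% of all genes did. The count was 2 with centring, quantile normalization or no moderation, and 4 without wild-type LPS + Dex replicate 3. The group means were lower in 6 of 6 treatments, though libraries of the genotypes overlap. That fit treats all libraries as independent. With genotype and replicate number as a random block Mfn2 passed too. Over the 6 means by genotype and number the difference was -0.23, with an exact permutation p of 0.1, the smallest possible. The wild-type mean of number 1 holds no LPS library, so these means do not all cover the same treatments. Dnm1l (-0.12), Mfn1 (-0.14) and Opa1 (-0.17) gave the same p in that permutation test. The length index was higher by 0.13 in libraries labelled AMPKα1-/- over the treatments. Mfn2 also passed by limma with the trend on length removed. The permutation test was not rerun with that trend removed, and the part of the index in these differences was not tested. By limma over the treatments, 4 of 10 had an unadjusted p under 0.05. Within 5 Mb of the Mfn2 start on chromosome 4, 35 of 75 tested genes (46.7%) differed between the genotypes over the treatments, 13 higher and 22 lower, against 10.3% to 37.8% around the other 9 genes of the group. These shares are from the fit that treats all libraries as independent, where 2432 of all genes passed, against 1485 with the replicate block. The largest were Zfp984 (0.221 against 5.12 FPKM, -2.25), whose start lies 95 kb from that of Mfn2, Pdpn (4.23 against 25.9 FPKM, -2.14) and Clstn1 (4.75 against 21.6 FPKM, -1.92). Prkaa1 lies on another chromosome, and whether the mice differed around Mfn2 was not tested. The response to treatment was not shown to differ between the genotypes for any of the 10 genes: the interaction passed for 0 of 10 and 0% of all genes in each of 5 comparisons by limma, with 1 of 10 (Fis1 with Dex) at an unadjusted p under 0.05 and 0 of 10 by the model without moderation. With no filter on low values (27414 genes) the interaction passed for 21 genes with Dex, 118 with LPS, 75 with LPS + Dex against LPS, 2 with DAMPs and 9 with DAMPs + Dex, none of them among the 10. Under the other alternatives it passed for at most 5 genes, except 13 with LPS when wild-type LPS replicate 2 was left out. The 95% intervals of these interactions reach -1.03 for Dnm1l, -1.08 for Opa1 and 1.09 for Fis1 with Dex and -1.03 for Dnm1l with LPS, so differences of that size are within what the data allow.

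The genes whose 12 group means ran most like those of Dnm1l were Thada (r = 0.99), Cenpj, Lims1, Gm15542 and Mapkbp1 (each 0.98), and for Mfn2 they were Lrpprc (r = 0.93), Sh2b1 (0.93), Ikbip (0.92), 1700066M21Rik (0.91) and Ndufs1 (0.90). These likenesses are over only 12 group means, chosen as the highest among all genes tested. Exons of Dnm1l overlap those of the antisense gene Gm49521 by 4.67% of their length, those of Mff overlap C430014B12Rik by 2% and those of Mief1 overlap AC140267.1 by 2.63%, and reads from these stretches could count for either gene.

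Other genes of fission and fusion were counted in lists written with earlier results known, and no list was tested as a whole. Differences of list genes between the genotypes, here and below, are from the fit that treats all libraries as independent. Among all genes 2432 passed in that comparison, and 1485 with the replicate block. Of 7 tested fission helpers, 3 rose and 0 fell with LPS + Dex against LPS in wild-type and 4 rose in libraries labelled AMPKα1-/- (list medians 0.28 and 0.31, all genes -0.03 and 0.01). Of all genes 16.6% and 19.3% rose in these comparisons. They include Inf2, a formin that builds actin at constriction sites, which went from 6.95 to 22.2 FPKM (1.54 ± 0.23, adjusted p = 4.93e-06) and had fallen with LPS (-1.07 ± 0.23), and Mtfp1, an inner-membrane protein that promotes fission, which went from 0.768 to 3.95 FPKM (1.49 ± 0.21, adjusted p = 2.14e-06). Spire1, an actin nucleator that works with INF2, fell with LPS (-0.98 ± 0.20, adjusted p = 0.000131), and its level over the treatments was lower in libraries labelled AMPKα1-/- (-0.30 ± 0.07, adjusted p = 0.00491) where that of Mtfp1 was higher (0.27 ± 0.08, adjusted p = 0.0176). With Dex alone 5 of the 7 rose and 0 fell in wild-type (list median 0.37, all genes 0.05), where 15.9% of all genes rose and 14.9% fell, and 1 of 7 rose in libraries labelled AMPKα1-/-, where 11.9% rose and 16% fell. The length index moved with Dex too (-0.38 in wild-type and 0.25 in libraries labelled AMPKα1-/-), and its part in these counts was not tested. Whether these counts differ was tested only gene by gene, where the interaction passed for 0 of 7 and for 0% of all genes. With DAMPs 0 of 7 passed in either genotype, where 2.01% and 4.13% of all genes did. Of the 7, 3 rose and 0 fell with DAMPs + Dex against DAMPs in each genotype. The list medians were 0.33 and 0.33 (all genes 0.03 and 0.07), and 24.3% and 25.3% of all genes passed in either direction. Of 3 tested fusion helpers 1 rose in wild-type and 2 in libraries labelled AMPKα1-/- with LPS + Dex against LPS: Miga2, an outer-membrane protein that acts with the mitofusins, was at 11.5 against 6.60 FPKM in wild-type (0.71 ± 0.19, adjusted p = 0.00354). Its relative Miga1 was the helper that differed between the genotypes over the treatments (9.07 against 6.23 FPKM, 0.46 ± 0.07, adjusted p = 3.99e-05).

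Some enzymes that modify DRP1 or the mitofusins rose and others fell, in shares near those of all genes with LPS. Of 18 tested, 2 rose and 7 fell with LPS in wild-type, where 19.9% of all genes rose and 35.8% fell (list median -0.19, all genes -0.19), and 1 rose and 9 fell in libraries labelled AMPKα1-/- (20.2% and 44.1% of all genes). With LPS + Dex against LPS 4 rose and 2 fell in each genotype (list median -0.04 in wild-type, all genes -0.03), where 16.6% and 17.5% of all genes did in wild-type and 19.3% and 18.4% in libraries labelled AMPKα1-/-. Pim1, a kinase reported to keep DRP1 off mitochondria, rose with LPS from 18.9 to 71.7 FPKM (1.87 ± 0.22, adjusted p = 3.08e-08) and was at 14.1 FPKM with LPS + Dex (-2.27 ± 0.22, adjusted p = 2.76e-09). Mapk3 (ERK1), a kinase that phosphorylates DRP1, fell with LPS from 552 to 169 FPKM (-1.70 ± 0.10, adjusted p = 9.91e-14). Ppp3ca, the calcineurin subunit that removes an inhibitory phosphate from DRP1, was at 36.7 FPKM with LPS and 74.4 FPKM with LPS + Dex (0.99 ± 0.10, adjusted p = 1.15e-08). Between the genotypes Mapk3 and Prkaca, the catalytic subunit of protein kinase A, were higher in libraries labelled AMPKα1-/- by 0.14 ± 0.04 each (adjusted p = 0.0106 and 0.0236).

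Of 19 tested genes of inner-membrane shape and OPA1 processing, 11 rose and 2 fell with LPS + Dex against LPS in wild-type, where 16.6% of all genes rose and 17.5% fell. Of the same 19, 9 rose and 3 fell in libraries labelled AMPKα1-/- (19.3% and 18.4% of all genes). The list medians were 0.43 and 0.37, against -0.03 and 0.01 for all genes. Minos1, a core subunit of the MICOS complex at crista junctions, went from 118 to 230 FPKM (0.95 ± 0.16, adjusted p = 3.05e-05), and Samm50, the outer-membrane partner of that complex, from 78.5 to 144 FPKM (0.87 ± 0.11, adjusted p = 5.11e-07). With LPS against vehicle 9 rose and 0 fell in libraries labelled AMPKα1-/- (20.2% and 44.1% of all genes), and 7 rose and 0 fell in wild-type (19.9% and 35.8%), led by Opa3 (14.7 to 33.9 FPKM, 1.15 ± 0.13, adjusted p = 1.45e-08) and the MICOS subunit Apool (8.82 to 16.2 FPKM, 0.80 ± 0.18, adjusted p = 0.000428); with LPS + Dex against LPS these 2 fell, by 0.39 ± 0.13 and 0.65 ± 0.18. The length index moved by 0.00409 with LPS in wild-type and by 0.24 in libraries labelled AMPKα1-/-. For LPS + Dex against LPS it moved by 0.16 and 0.0107, and its part in these counts was not tested. Over the treatments Afg3l2, a protease of the inner membrane, was lower in libraries labelled AMPKα1-/- (-0.18 ± 0.05, adjusted p = 0.012) and the prohibitin Phb2 higher (0.15 ± 0.04, adjusted p = 0.014). Tomm20, an outer-membrane receptor often stained to show mitochondria, stayed between 19.5 and 27.5 FPKM in the 35 libraries and passed in 0 of 12 treatment comparisons.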

How the data were processed

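RNA of cultured mouse BMDMs was extracted with TRIzol and sequenced by Novogene. The authors deposited FPKM values for 47069 Ensembl identifiers in each of 35 libraries. The submitters' processing notes name TopHat2 2.0.12, Bowtie2 2.2.3, HTSeq 0.6.1 and DESeq2, and the builds GRCm38 and mm10, without their order. Strandedness is not given in the sources used here. Positions, lengths and symbols (46488 identifiers) are from GENCODE M21 (GRCm38). FPKM are not counts. From the steps of low values, libraries held 15837203 to 31955298 fragments (55.3% to 63.9% of values under 10 fragments were whole within 0.001), and 1 fragment on 1 kb is worth 0.0313 to 0.0631 FPKM. Replicates correlated at r = 0.967 to 0.993 across genes, and no pair of libraries shared a nonzero value. By the study, cultures came from individual mice.

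Genes with a mean of at least 1 FPKM were fitted on log2(FPKM + 1), which understates changes of low genes, with limma 3.58.1 in R 4.3.3 (12 group means, all 35 libraries sharing one spread, trended empirical Bayes, 2-sided, Benjamini-Hochberg at 0.05 over 11354 genes). Wild-type LPS has 2 libraries and shares the spread of the others. Ratios were tested by permutation. Figures and tables used Python with pandas and matplotlib. The fit was tested on simulated data. The genes, lists and rules were chosen with earlier results of these data known. Named genes are the 10, the label checks, up to 2 per list with the largest change among those that passed in wild-type LPS, wild-type LPS + Dex against LPS or between genotypes, Tomm20, the genes most like Dnm1l (widest range) and Mfn2, and the largest neighbours of Mfn2, which were chosen after their values were seen.

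Same-numbered libraries were checked as pairs by the correlation of their deviations from group means. In libraries labelled AMPKα1-/- every pair exceeded 0.1 for Dex (0.217 to 0.4), LPS (0.124 to 0.316), LPS + Dex against LPS (0.356 to 0.375) and LPS + Dex against vehicle (0.246 to 0.365); elsewhere at least 1 pair did not, or there were only 2 pairs. The pairing rests on these data and on the shared numbers of the labels, which do not say what a number marks. Alternatives were a pseudocount of 0.1, no filter, at least 5 FPKM, quantile normalization, libraries centred on one median, no moderation, fits of the compared groups alone, the replicate block, removal of the length trend (a spline in each library, added after the data were seen) and leaving out each library in turn.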

Additional observations from a re-analysis of the deposited data

How the results depend on the processing

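None of the 38 calls of the 10 genes, nor the ratio of Mfn2 to Mfn1, changed direction under the alternatives run, and the counts of the other gene lists were not rerun. Of these 38 calls, the number kept was 32 with centring on one median (18 gained), 35 with quantile normalization (14 gained), 27 with only the groups compared (2 gained), 37 with a pseudocount of 0.1, no filter, no moderation or the length trend removed, and 38 with at least 5 FPKM. With the replicate block, 38 of 38 calls were kept and 4 gained: Dnm1l with Dex and Opa1 with LPS in libraries labelled AMPKα1-/-, Yme1l1 with LPS (0.53) and Dnm1l in the added comparison (-0.76) in wild-type; it changed no other call. Without 1 library at a time 26 of 38 calls were always kept. Calls counted over the 10 genes moved as follows. Dex in libraries labelled AMPKα1-/- gave 1, and 2 with a pseudocount of 0.1, at least 5 FPKM, quantile normalization, only the groups compared or the replicate block, and 3 with centring or the length trend removed. DAMPs + Dex against DAMPs gave 1 in wild-type (0 with only the groups compared, 2 without moderation) and 2 in libraries labelled AMPKα1-/- (1 with centring, quantile normalization or only the groups compared). LPS + Dex against vehicle gave 6 in wild-type (1 with only the groups compared) and 4 in libraries labelled AMPKα1-/- (7 with centring, 8 with quantile normalization). LPS + Dex against LPS in wild-type gave 4 (1 with only the groups compared). The genotypes over 6 treatments gave 1 (2 with centring, quantile normalization or no moderation), and the added wild-type comparison 3 (5 with centring or quantile normalization). The cause of these moves was not tested.

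Leaving out 1 library gave 1 to 2 calls for Dex in wild-type (1 without vehicle or Dex replicate 2), 2 to 4 for LPS in wild-type (2 without LPS replicate 3), 1 to 2 for DAMPs + Dex in wild-type (2 without DAMPs + Dex replicate 2), 0 to 1 for Dex in libraries labelled AMPKα1-/- (0 without Dex replicate 3), 1 to 2 for DAMPs + Dex in libraries labelled AMPKα1-/- (1 without any of DAMPs replicates 2 and 3 and DAMPs + Dex replicates 1, 2 and 3) and 1 to 4 between the genotypes (4 without wild-type LPS + Dex replicate 3, 3 without wild-type Dex replicate 3 or DAMPs replicate 3 labelled AMPKα1-/-, 2 without 5 others). The ratio of Mfn2 to Mfn1 differed between genotypes by -0.129 to -0.0795, and 22 of 35 such fits lost p under 0.05. Among all genes, centring moved the share of calls that were higher from 35.7% to 46.3% (wild-type) and 31.4% to 49.0% (labelled AMPKα1-/-) with LPS, from 31.7% to 50.4% and 29.0% to 50.9% with LPS + Dex against vehicle, and from 42.4% to 58.7% between the genotypes. All-gene calls under only the groups compared were 1931 in place of 3871 for wild-type LPS + Dex against LPS, and between the genotypes 1485 in place of 2432 with the replicate block. Groups of 2 or 3 libraries limit the precision, and an adjusted p above 0.05 does not show that values are alike.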

Other observations

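Of 11 tested genes of mitophagy, the removal of damaged mitochondria, 2 rose and 8 fell with LPS in wild-type, where 19.9% of all genes rose and 35.8% fell. The libraries labelled AMPKα1-/- also had 2 that rose and 8 that fell (20.2% and 44.1% of all genes). The list medians were -1.03 and -0.60, against -0.19 and -0.30 for all genes. Pink1, the kinase that marks depolarized mitochondria, went from 45.8 to 5.31 FPKM in wild-type (-2.90 ± 0.17, adjusted p = 2.7e-14) and was at 13.6 FPKM with LPS + Dex (1.21 ± 0.17 above LPS, adjusted p = 1.39e-06). Ulk1, a kinase that starts autophagy, went from 44.2 to 11.9 FPKM (-1.81 ± 0.20, adjusted p = 1.69e-08) and to 29.9 FPKM with LPS + Dex (1.24 ± 0.20, adjusted p = 1.88e-05). Between the genotypes over the treatments the autophagy receptor Optn was lower in libraries labelled AMPKα1-/- (4.25 against 7.54 FPKM, -0.65 ± 0.07, adjusted p = 8.15e-08) and the receptor Sqstm1 higher (624 against 520.3 FPKM, 0.29 ± 0.08, adjusted p = 0.0114).

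Of 8 tested biogenesis factors 1 rose and 3 fell with LPS in wild-type and 1 rose and 5 fell in libraries labelled AMPKα1-/- (list medians -0.33 and -0.45), where 19.9% of all genes rose and 35.8% fell in wild-type and 20.2% and 44.1% in libraries labelled AMPKα1-/-. With LPS + Dex against LPS 4 rose and 0 fell in each genotype (list medians 0.21 and 0.25), where 16.6% and 19.3% of all genes rose. Ppargc1b, a coactivator of mitochondrial genes, was at 9.64 against 1.81 FPKM (1.84 ± 0.27, adjusted p = 4.53e-06), and Tfb2m, a mitochondrial transcription factor, at 19.5 against 11.7 FPKM (0.63 ± 0.22, adjusted p = 0.0276, with overlapping libraries) after a fall with LPS (-0.57 ± 0.22, adjusted p = 0.0291). The nuclear receptor Esrra rose with LPS (0.61 ± 0.14, adjusted p = 0.000684). Of 12 import and outer-membrane genes 5 rose and 2 fell with LPS in libraries labelled AMPKα1-/- (20.2% and 44.1% of all genes) and 3 rose and 1 fell in wild-type (19.9% and 35.8%; list medians 0.11 and 0.00273), led by the chaperone Hspd1 (0.90 ± 0.11, adjusted p = 8.96e-08) and the channel Timm23 (0.81 ± 0.10, adjusted p = 1.02e-07). With LPS + Dex against LPS 5 rose and 2 fell in libraries labelled AMPKα1-/- (19.3% and 18.4% of all genes), and 3 rose and 2 fell in wild-type (16.6% and 17.5%), with Tomm40, the outer-membrane channel, at 0.75 ± 0.18 (adjusted p = 0.00148) and Timm44, of the import motor, at 0.43 ± 0.12 (adjusted p = 0.0077). Timm44 and Hspd1 were lower in libraries labelled AMPKα1-/- over the treatments (-0.24 ± 0.05 and -0.12 ± 0.04, adjusted p = 0.000482 and 0.0398). Of 6 tested genes of mitochondrial transport, 1 rose and 0 fell with LPS in wild-type (19.9% and 35.8% of all genes). It was the myosin Myo19 (0.648 to 2.39 FPKM, 1.03 ± 0.21, adjusted p = 0.000106). In wild-type 0 of 6 passed with LPS + Dex against LPS, where 34.1% of all genes did. Among libraries labelled AMPKα1-/- 1 of 6 rose and 2 fell with LPS (20.2% and 44.1% of all genes), and 1 rose and 0 fell with LPS + Dex against LPS (19.3% and 18.4%).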
